A study of Rattus norvegicus with 8 samples.

Results

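Apex1 and genes that repair damaged DNA bases were described in rat liver of 8 rats, each on its own Affymetrix array (Rat Genome U34, version A). The set was 7 named genes, namely Apex1, Ogg1, Polb, Mpg, Mgmt, Xrcc1 and Parp1, and its members were the probe sets annotated to exactly 1 of them. These were 10 probe sets of 6 genes, out of 8740 non-control probe sets that named 4736 genes. No probe set in the annotation used carried Xrcc1, which was therefore not analysed here. The set was drawn up because Apex1 was known to differ between the groups of these arrays, so the differences below are descriptions and no p-value is given for a member.

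The rats were male Fischer 344 animals fed AIN 76A chow, with an age recorded as 6 and no unit. Of these, 4 received D3T (3H-1,2-dithiole-3-thione) by gavage on days 1, 3 and 5, at 0.3 mmol for each kg of body weight, in a saturated solution of sucrose. The other 4 were gavaged with 0.2 ml of that solution alone, and the labels give no dosing days for vehicle replicate 2. D3T, a dithiolethione, is known as an inducer of detoxification enzymes that acts by way of the Nfe2l2 protein, a transcription factor. The 6 hepatocyte markers examined (Alb, Ttr, Apoa1, Cps1, Tat and Serpina1) were all measured. Their summed signal was 274400 to 420200 in vehicle and 356300 to 482600 after D3T, with means of 334200 and 410200. A liver sample holds several cell types, and fewer cells of a type cannot be told apart from less RNA per cell.

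Base excision repair replaces single bases altered by oxidation, alkylation or loss of an amino group. A glycosylase removes the altered base, the endonuclease encoded by Apex1 cuts the strand at the empty site, a polymerase fills the gap and a ligase closes it. Mgmt works by a separate route and takes an alkyl group off guanine directly, at the cost of 1 protein molecule per repair. The Apex1 protein, also called REF-1, has a further role in keeping transcription factors such as AP-1 in a reduced form that binds DNA.

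Sequences at the starts of Apex1, Mgmt and Parp1 are shown because the probe set of Apex1 was far lower after D3T, the brighter one of Mgmt hardly moved, and those of Parp1 went both ways. They are from RefSeq (GRCr8), 5′ to 3′ on the strand of each gene. Those of Mgmt and Parp1 end at the base before the start of the gene, and that of Apex1 runs 30 bases past the first base of the annotated gene. Capitals mark, on either strand, the CCAAT box, the E-box with the letters CACGTG and the GC box with the letters GGGCGG.
Apex1, chr15:26618114-26618175, plus strand: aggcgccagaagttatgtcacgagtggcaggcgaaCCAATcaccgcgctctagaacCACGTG
Mgmt, chr1:201140732-201140831, plus strand: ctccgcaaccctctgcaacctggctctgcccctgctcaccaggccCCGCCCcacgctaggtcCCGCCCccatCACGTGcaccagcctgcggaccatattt
Parp1, chr13:94839384-94839483, plus strand: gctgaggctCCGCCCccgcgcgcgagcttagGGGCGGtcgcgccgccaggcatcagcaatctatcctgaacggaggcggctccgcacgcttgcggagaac

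RefSeq places the start of Apex1 in 2 ways, since its gene range begins at 26618146 and its promoter window is set on a start 80 bases further in, at 26618226. The stretch begins at the base after the start of Osgep, which is transcribed in the opposite direction and had 0 probe sets here, and 32 bases lie between Osgep and the Apex1 gene range. Between the 2 starts, and so inside the annotated gene, lay 3 copies of the E-box, 2 of the CCAAT box and 1 of the GC box, none overlapping another. The shown stretch holds the first E-box and the first CCAAT box of these. Over the full windows of 250 bases before and 50 after the start, the E-box was found in 6.42% of 33469 RefSeq promoters, the CCAAT box in 37.5% and the GC box in 33.1%. Mgmt had 1 E-box and Parp1 none. The letters TGACNNNGC, the core of the element bound by the Nfe2l2 protein, were searched on both strands and were in 12.1% of all windows. They were in none of the 6 windows found for these genes (Polb had no entry), which says only that these letters are not there.

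Each array was scaled to the same trimmed mean signal, and a low-signal limit of 20.4 was set, which is the 20th percentile of all values. Values under it were raised to it before log2 was taken. The 40th percentile, at 64.9, served as a stricter limit. Of the 10 probe sets, 5 were among the brightest 60% that entered the test across all probe sets, and the other 5 lay below that filter. The filter stood at a geometric mean signal of 60.7, with Apex1 inside it at 78.5 and Parp1 rc_AA964849_at just outside at 59.5. Ogg1 (58.9) and Polb U38801_at (58.5) also lay just outside.

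Apex1 was the member with the widest gap between the groups. The gene lies on chromosome 15 (26618146 to 26620330, GRCr8), and its probe set D44495_s_at has a name that marks sequence shared with other transcripts. Its signals were 143.9, 198.5, 275.3 and 180.0 in vehicle replicates 1 to 4 and 24.8, 26.0, 38.8 and 40.6 in D3T replicates 1 to 4. All 4 D3T arrays lay below every vehicle array, and the lowest vehicle signal was 3.54 times the highest D3T signal. Means were 199.4 ± 55.4 (SD, n = 4) and 32.5 ± 8.34, and the log2 difference was -2.61 ± 0.29 (SE), or 6.12-fold lower.

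The D3T signals of Apex1 were close to the low-signal range. They were 1.22 to 2.00 times the 20th-percentile limit, against 7.07 to 13.5 times in vehicle. Among all probe sets of the same array, Apex1 stood between percentiles 56.6 and 69.6 in vehicle and between 21.6 and 32.6 after D3T. None of its 8 signals was under the 20th-percentile limit, so the floor did not alter its difference, but all 4 D3T signals were under the 40th. With the floor raised to the 40th percentile the log2 difference was -1.58 ± 0.20, and with 16 added to each signal and no floor it was -2.13 ± 0.27. The size of the fall thus varied with how low signals were treated, while its direction was the same in all 16 alternative settings examined. Leaving out any 1 array gave log2 differences from -2.76 to -2.44.

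**Figure D1:**
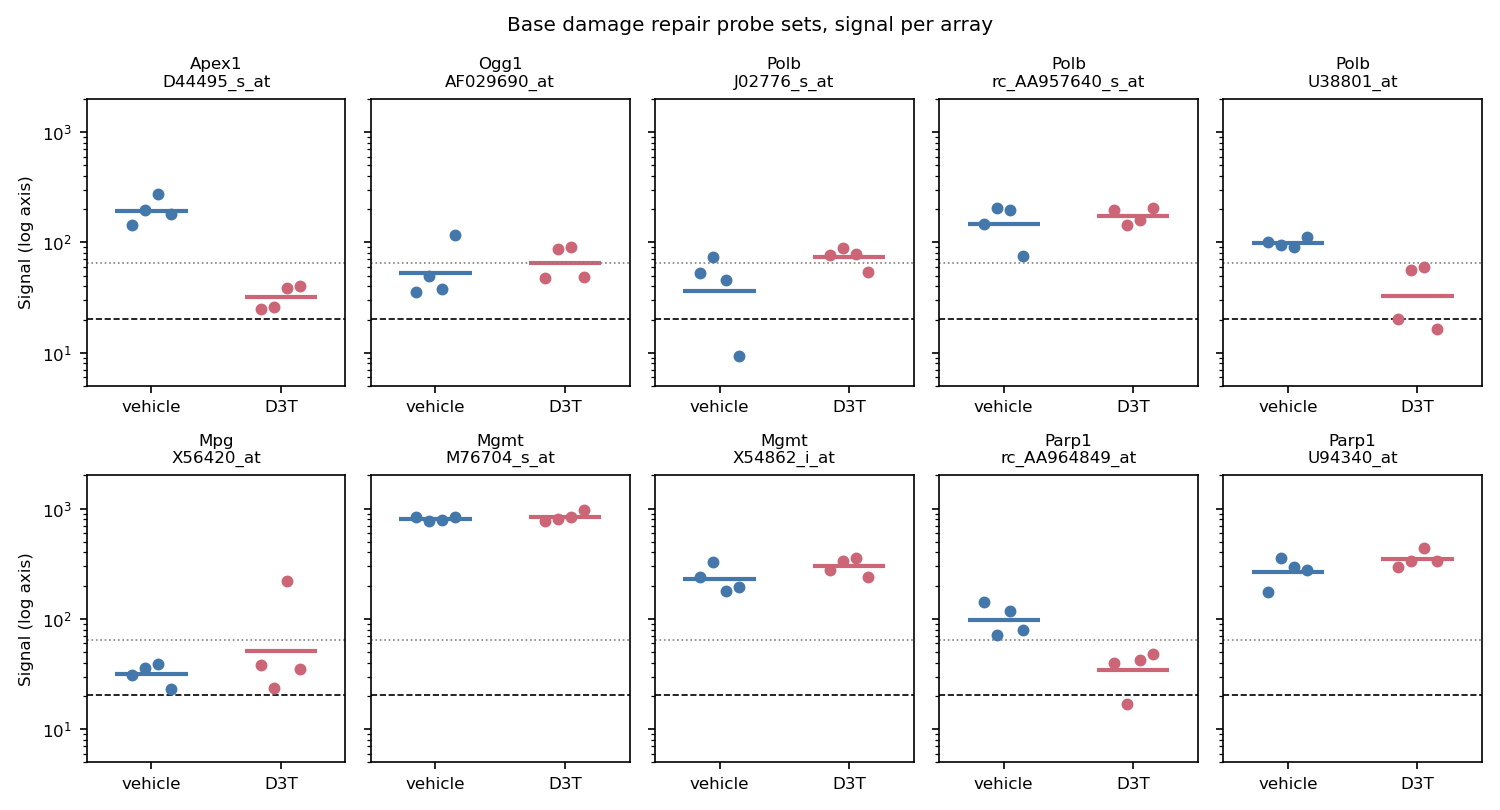
Signal per array (log axis) of the 10 probe sets, with vehicle arrays in blue and D3T arrays in red. Horizontal bars are geometric means over 4 arrays, the dashed line is the 20th percentile of all values (20.4) and the dotted line the 40th (64.9). The groups of Apex1, Polb U38801_at and Parp1 rc_AA964849_at do not overlap, and their D3T arrays lie below the dotted line.

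Of the 5 members tested, 1 passed an adjusted p of 0.05 with limma, namely Apex1 as lower. Over all 5244 probe sets tested 10.7% passed, 6.48% as lower and 4.2% as higher. Because Apex1 was chosen from this contrast, nothing is read from that count. Of all 10 members, 3 had D3T arrays wholly below the vehicle arrays and 0 wholly above, where 7.64% and 6.27% of the 8740 non-control probe sets did so. Of these 3, Apex1 was again chosen from this contrast. Polb U38801_at and Parp1 rc_AA964849_at have D3T signals under the low-signal limit and partners of the same gene with the opposite sign. Nothing is read from this count either. The 7 members whose groups overlapped all had log2 differences above 0, as did 1633 of 3150 genes tested. With 1 array left out the sign turned for Mpg (-0.0098), Polb rc_AA957640_s_at (-0.056) and Mgmt M76704_s_at (-0.011). The median log2 difference was 0.29 over the 10 members, beside -0.0 over all non-control probe sets. It was 0.26 over the 5 members tested, beside 0.02 over all probe sets tested.

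The glycosylase genes gave signals in the low range. Ogg1 encodes the glycosylase that removes oxidised guanine, and its probe set AF029690_at read 35.4, 49.6, 37.6 and 117.7 in vehicle and 47.9, 87.7, 90.3 and 49.0 after D3T. The groups overlapped, vehicle replicate 4 was the highest array of all, and the log2 difference was 0.31 ± 0.46 (SE). Leaving out 1 array gave 0.12 without vehicle replicate 1 to 0.70 without vehicle replicate 4. It became 0.013 ± 0.24 with the floor at the 40th percentile, since 3 vehicle and 2 D3T signals were under that limit. Mpg encodes the glycosylase that removes alkylated purines. Its probe set X56420_at read 31.2, 35.9, 39.1 and 23.2 in vehicle and 38.3, 23.5, 222.4 and 34.8 after D3T. Apart from D3T replicate 3, every Mpg signal was under the 40th-percentile limit. The log2 difference was 0.70 ± 0.69 (SE) over all arrays and -0.0098 without D3T replicate 3.

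Polb encodes the polymerase that fills the gap after the Apex1 cut, and its 3 probe sets did not move together. U38801_at read 100.6, 94.4, 91.5 and 110.9 in vehicle and 20.2, 56.5, 60.3 and 16.5 after D3T. All 4 D3T arrays were lower, and replicates 1 and 4 of D3T were under the 20th-percentile limit, so the fitted log2 difference of -1.52 ± 0.43 (SE) understates the gap there. Under the higher floor it was -0.61 ± 0.06, as all 4 D3T signals were then at the floor. The brighter rc_AA957640_s_at read 147.7, 204.3, 198.7 and 75.1 in vehicle and 197.7, 144.6, 159.2 and 205.0 after D3T. Its groups overlapped, with vehicle replicate 4 lowest, and its log2 difference was 0.26 ± 0.34, or -0.056 without that array. J02776_s_at read 53.0, 74.3, 45.7 and 9.28 in vehicle and 77.0, 89.7, 77.7 and 54.1 after D3T. Here 3 D3T arrays were above every vehicle array, vehicle replicate 4 was again lowest, and the log2 difference was 0.75 ± 0.41. It was 0.38 ± 0.27 without that array, whose signal was under the 20th-percentile limit, and 0.20 ± 0.10 with the floor at the 40th percentile. Only U38801_at of the 3 was wholly lower after D3T, and no direction is given for the gene.

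Parp1 encodes the poly(ADP-ribose) polymerase that binds DNA breaks and draws in repair proteins, and its 2 probe sets differed in sign. rc_AA964849_at read 143.3, 70.9, 118.6 and 79.0 in vehicle and 39.9, 17.0, 42.8 and 47.6 after D3T. All 4 D3T arrays were lower, with D3T replicate 2 under the 20th-percentile limit, and the log2 difference was -1.46 ± 0.36 (SE), or -0.61 ± 0.23 with the floor at the 40th percentile. U94340_at, in a brighter range, read 174.0, 353.6, 293.5 and 275.7 in vehicle and 296.8, 334.5, 435.7 and 332.2 after D3T. Its groups overlapped, only D3T replicate 3 exceeded every vehicle array, and its log2 difference was 0.38 ± 0.23, or 0.18 ± 0.16 without vehicle replicate 1, the lowest array. Of 1415 genes with several probe sets that differed at all, 46.4% had probe sets of both signs. In 10.8% a probe set without overlap had a partner of the opposite sign, as in Polb and Parp1.

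Mgmt encodes the methyltransferase that repairs alkylated guanine, and its probe sets were well clear of the low-signal range. M76704_s_at read 834.3, 767.0, 793.8 and 832.6 in vehicle and 767.7, 802.2, 833.1 and 970.6 after D3T. The groups overlapped almost fully, only D3T replicate 4 stood above the vehicle arrays, and the spread was narrow, with a coefficient of variation of 4.03% in vehicle and 10.5% after D3T. The signals were at least 37.7 times the low-signal limit and the log2 difference was 0.06 ± 0.08 (SE). Its sign turned without D3T replicate 4 (-0.011) and with the 3'/5' ratio of actin in the fit (-0.048). X54862_i_at, whose name marks an incomplete set of probes, read 237.8, 326.7, 178.1 and 196.7 in vehicle and 280.4, 334.4, 359.8 and 238.5 after D3T. These groups overlapped too, with a log2 difference of 0.39 ± 0.22.

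**Figure D2:**
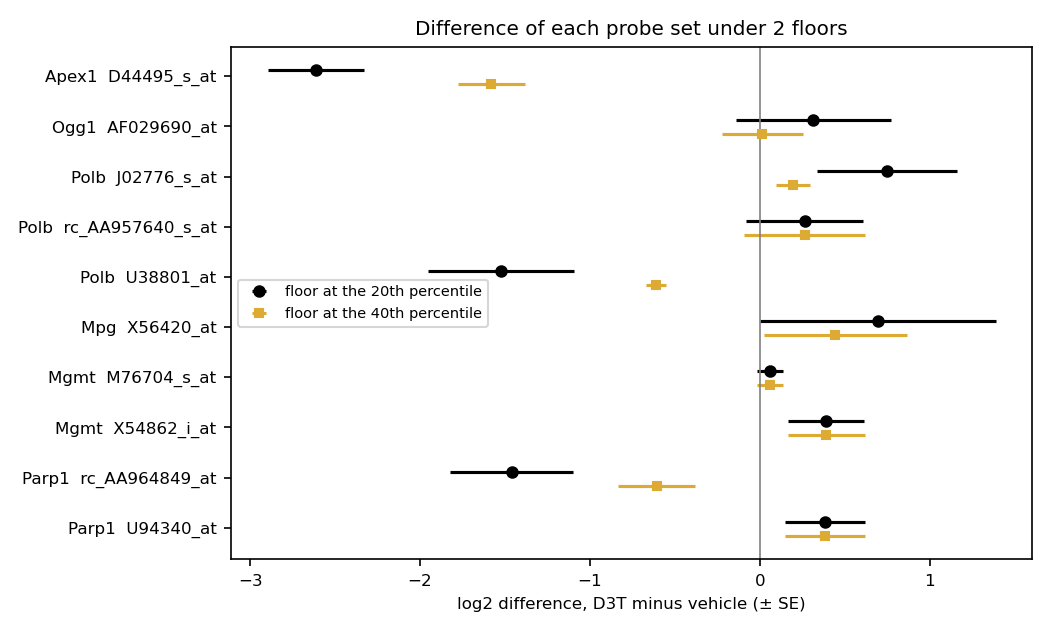
Log2 difference (D3T minus vehicle, with SE as bars, 4 arrays per group) of each probe set with the low-signal floor at the 20th percentile (black circles) and at the 40th (yellow squares). Apex1 goes from -2.61 to -1.58, Polb U38801_at from -1.52 to -0.61 and Parp1 rc_AA964849_at from -1.46 to -0.61, whereas the brighter Mgmt and Parp1 U94340_at probe sets stay in place.

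The 3 probe sets with lower D3T arrays were all measured in a middle range in vehicle and a low range after D3T. Their vehicle signals lay between percentiles 41.8 and 69.6 of the array and their D3T signals between 17.0 and 38.7. The 3 members that stayed above percentile 60 on every array were both Mgmt probe sets and Parp1 U94340_at, and their log2 differences were 0.06, 0.39 and 0.38.

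**Figure D3:**
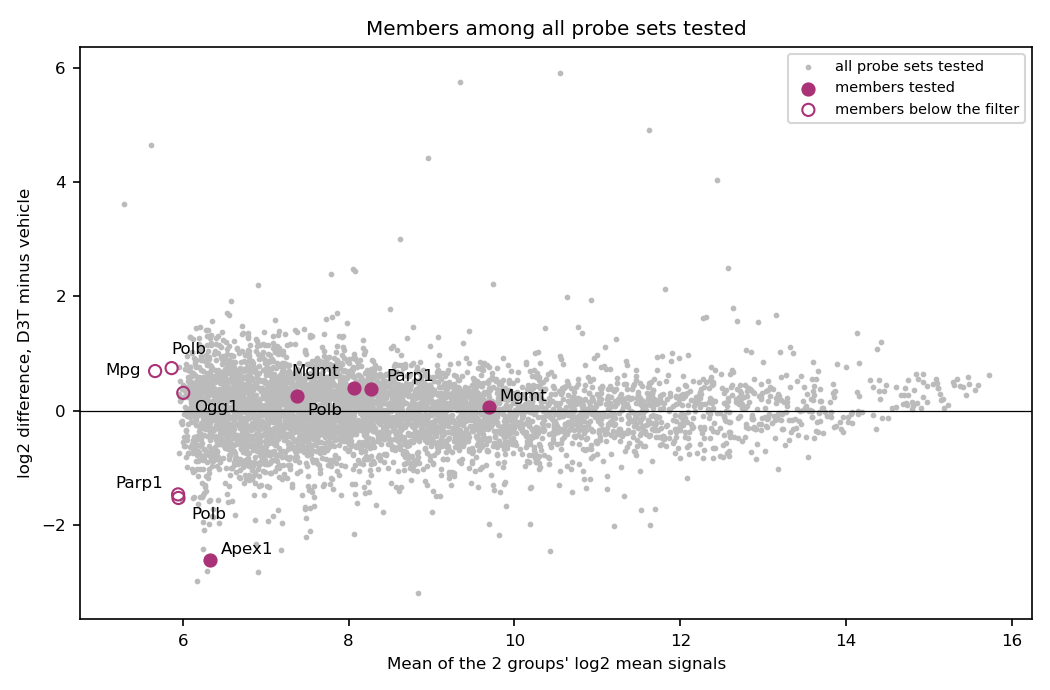
Log2 difference (D3T minus vehicle) against level (mean of the log2 mean signals of both groups) for the 5244 probe sets tested in grey, with the 5 members tested as filled circles and the 5 below the filter as open circles. Apex1 lies at the low-signal end and at the lower edge of the cloud, and the brighter members lie near 0.

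Other repair genes were examined to set the members in their pathways, from lists drawn up with earlier results of these arrays known. Among 20 tested genes of 4 repair lists, 1 was higher and 0 were lower with limma at an adjusted p of 0.05, where 9.56% of 3150 genes passed in all (3.71% higher, 5.84% lower). At an unadjusted p of 0.05 the counts were 1 and 1, where 13.0% of the 3150 genes were higher and 16.8% lower. The median log2 difference of the 20 genes was -0.18, beside 0.03 over all genes tested.

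Of 11 other base excision repair genes, a list that also holds Alkbh2 of direct alkyl repair, none passed. The 11 genes had a median log2 difference of -0.39, and 7 of them were negative, where 1517 of 3150 genes tested were negative. Signs rest on 1 probe set a gene. The other tested probe set of Pcna and both others of Pold3 had the opposite sign, and those of Rfc1 the same sign. At an unadjusted p of 0.05 the counts were 0 higher and 1 lower, beside the same 13.0% and 16.8% of all genes. The brightest, Hmgb1, a chromatin protein that also binds the repair intermediate, went from 794.4 ± 110.8 (SD, n = 4) to 568.1 ± 133.2 after D3T (log2 difference -0.50 ± 0.19 (SE), adjusted p = 0.109 with limma). Its groups overlapped through D3T replicate 4 (683.0), which was just above vehicle replicate 2 (677.9). Named after their values were seen, the glycosylase genes Nthl1, for oxidised pyrimidines, and Ung, for uracil, had log2 differences of -0.94 ± 0.47 and -0.72 ± 0.44 (adjusted p = 0.214 and 0.304 with limma). Ung read 64.5 in D3T replicate 1 and 287.3 to 316.8 in the other D3T arrays, against 274.3 to 395.6 in vehicle, and without that array its log2 difference was -0.17 ± 0.18. Lig3, the ligase partner of the protein encoded by Xrcc1, was at -0.44 ± 0.33 (adjusted p = 0.395 with limma).

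In nucleotide excision repair, which removes bulky lesions, none of 4 genes passed and at an unadjusted p of 0.05 the count was 0 with limma. The median log2 difference was -0.17. Ercc1, part of the nuclease that cuts beside the lesion, read 674.5, 929.3, 662.8 and 676.7 in vehicle and 728.3, 698.0, 578.8 and 768.1 after D3T (log2 difference -0.08 ± 0.16 (SE), adjusted p = 0.758 with limma). Vehicle replicate 2 stood above all other arrays, and without it the log2 difference was 0.039. No mismatch repair gene listed had a probe set of its own here.

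In strand break repair and damage signalling, 1 of 5 genes passed, as higher. This was Mdm2, the ubiquitin ligase that restrains p53 and is itself induced by p53. It read 218.3, 226.7, 167.9 and 208.6 in vehicle and 368.7, 281.3, 320.3 and 401.5 after D3T. All 4 D3T arrays were above every vehicle array, and the difference was 1.67-fold (log2 difference 0.74 ± 0.18 (SE), adjusted p = 0.0296 with limma). The call was lost without vehicle replicate 1, 3 or 4 and without D3T replicate 1 or 4 (adjusted p from 0.0603 to 0.0828 with limma), although the log2 difference ran only from 0.64 to 0.83 across all 8 such fits. It was also lost once the 3'/5' ratio of actin entered the fit (log2 difference 0.63 ± 0.29, adjusted p = 0.364 with limma). Apart from D3T replicate 3, every D3T array had a lower ratio than every vehicle array. The part of that ratio and the part of D3T therefore cannot be told apart here. Other genes induced by p53, named after their values were seen, did not pass. Ccng1 had a log2 difference of -0.82 ± 0.59, but D3T replicate 2 read 32.0 and the other D3T arrays 223.8 to 284.7, and without it the value was -0.07 ± 0.18. Cdkn1a was at -0.29 ± 0.40 and Gadd45a at 0.30 ± 0.16. The 1 other tested probe set of Cdkn1a had the opposite sign, as did 1 of the 3 others of Gadd45a.

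**Figure D4:**
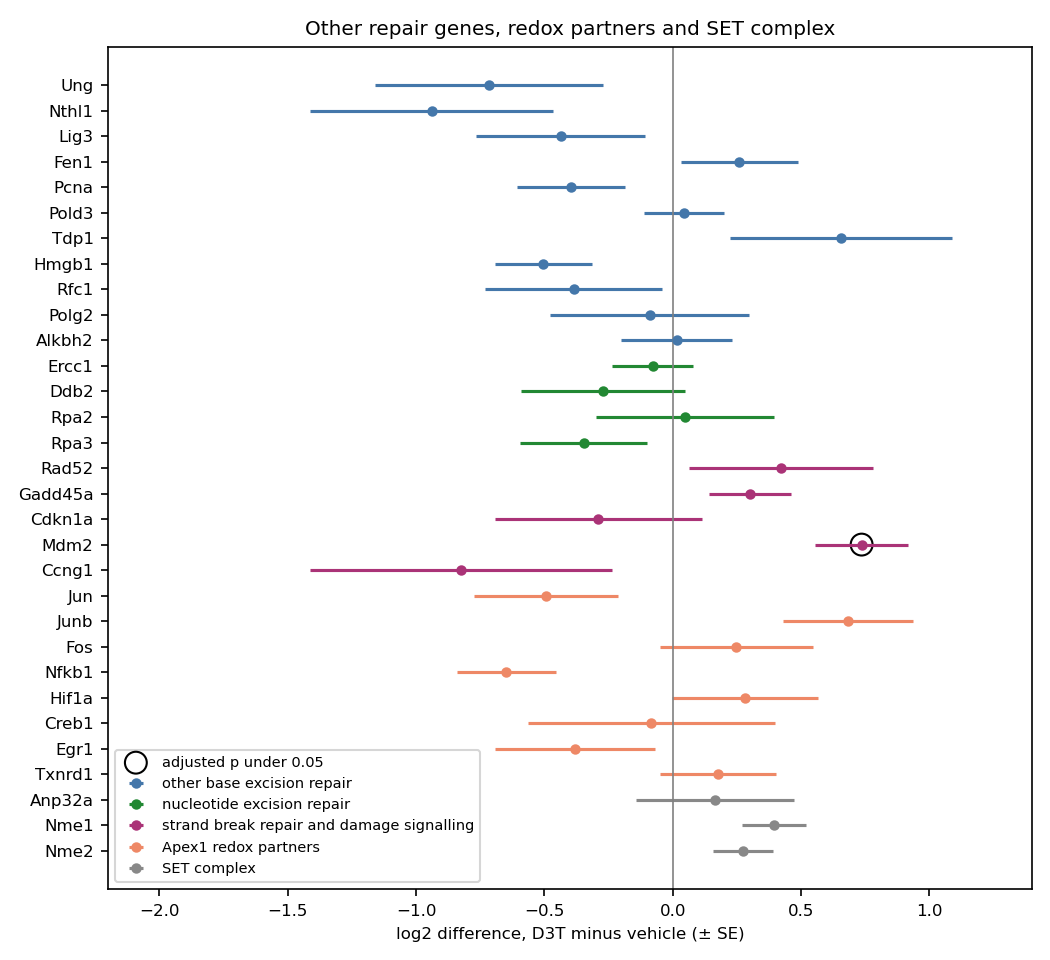
Log2 difference (D3T minus vehicle, with SE as bars, 4 arrays per group) of 31 tested genes that are not members, coloured by list. Only Mdm2, circled, passed an adjusted p of 0.05 with limma, at 0.74.

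Apex1 has partners in redox control and in the SET complex, a nuclease complex that takes part in cell death triggered by granzyme A. None of 8 redox partner genes and none of 3 SET complex genes passed with limma. At an unadjusted p of 0.05 the redox partners numbered 1 higher and 1 lower, and the SET complex genes 2 higher and 0 lower, beside 13.0% higher and 16.8% lower of all genes. The brightest redox partner, Txnrd1, which encodes thioredoxin reductase, had a log2 difference of 0.18 ± 0.22 (adjusted p = 0.624 with limma), or -0.054 without D3T replicate 4. Nme2, the brightest of the SET complex list and a nucleoside diphosphate kinase, read 2585, 2697, 2527 and 2663 in vehicle and 2929, 3473, 3619 and 2721 after D3T. Its D3T arrays were all above the vehicle arrays, by a log2 difference of 0.27 ± 0.12 (adjusted p = 0.152 with limma). Nfkb1, Junb and Nme1 were chosen after their values were seen because their groups did not overlap either. Over all non-control probe sets 7.64% had D3T arrays wholly lower and 6.27% wholly higher, so nothing is read from these. Their log2 differences were -0.65 ± 0.19, 0.68 ± 0.25 and 0.39 ± 0.13 (adjusted p = 0.0571, 0.107 and 0.0681 with limma). The other tested probe set of Junb had the opposite sign.

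The pattern of Apex1 over the 8 arrays was compared with 4297 other tested probe sets that had 1 gene symbol. The most alike were those of Txnip, Ptpn1, Psmb9, Cyba and Cand1, with Pearson correlations of log2 signals from 0.970 to 0.977. All 5 were lower after D3T, by log2 differences from -1.88 for Cyba to -0.81 for Txnip. That likeness rests on the group difference from which Apex1 was chosen. With each group centred on its own mean, other probe sets were most alike, namely those of Dynlt1, Atxn3, Pitpnb, Mcm5 and Dhx9, with correlations from 0.912 to 0.940. Of these 5, 4 had positive log2 differences, up to 0.52 for this Atxn3 probe set, and Dhx9 had -0.42. The 4 other members tested had centred correlations with Apex1 of 0.34 for Polb, 0.38 and -0.29 for the Mgmt probe sets and 0.64 for Parp1. These are descriptions over 8 arrays that share 1 scaling. The probe sets named are the highest of 4297, and noise alone could give such values over so few centred arrays, which was not tested. For Atxn3, vehicle replicate 3 read 102.9 and the other vehicle arrays 37.2 to 47.5, and Apex1 was also highest in that array (275.3).

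Markers of other cell types and measures of RNA quality were examined in the same arrays. Exact two-sided permutation tests over the 10 measures gave adjusted p from 0.114 to 0.629, but 6 measures would have to reach the smallest p for any to pass 0.05, so these values do not show that the groups were alike. The summed signal of 8 lymphocyte marker probe sets, of 6 genes of 8 listed, was 661.6 to 800.5 in vehicle and 800.6 to 1018 after D3T. Red cell markers (2 of 4 genes) summed to 10710 to 15140 and 7124 to 9940, and fibroblast markers (7 of 7 genes) to 3543 to 5979 and 2921 to 3563. In the fibroblast list both Col3a1 probe sets passed as lower, and no other probe set passed. Macrophage markers (5 of 7 genes) summed to 4912 to 5757 and 3800 to 5049, with both C1qb probe sets passing as lower and both Cd14 probe sets as higher. Among the hepatocyte markers, 1 of 2 Apoa1 probe sets passed as lower and no other probe set passed. Dividing cell markers, of 6 genes of 10 listed, summed to 3799 to 4535 and 2726 to 4064, with 3 of 5 Ccnd1 probe sets passing as lower. The 10 probe sets of the 5 other dividing cell genes (Top2a, Cdk1, Ccnb1, Tyms and Mcm6) all had log2 differences above 0, and 1 of 3 of Top2a and 1 of 3 of Mcm6 passed as higher. Beside these, 1633 of 3150 genes tested had log2 differences above 0. For Top2a D14045_s_at and Mcm6 U17565_at, 3 vehicle arrays were under the low-signal limit. So were 2 vehicle arrays and 1 D3T array for each of Ccnb1 rc_AA998164_s_at and Tyms, and 1 vehicle array for Cdk1. The list as drawn up held Ccnd1, with an exact permutation p of 0.171, and setting that gene apart was not planned. Without Ccnd1 the sums were 795.6 to 999.6 in vehicle and 1253 to 2356 after D3T. Lymphocyte sums were higher and red cell sums lower after D3T in 4 of 4 arrays, each with an exact permutation p of 0.0286, the smallest this design allows. No probe set of these lists passed, and Cd8a had a log2 difference of -0.30. Nearly all of the red cell sum came from Hbb, with a vehicle mean of 12130 beside a mean sum of 12640. The actin 3'/5' ratio was 1.45 to 1.59 in vehicle and 1.17 to 1.47 after D3T. The part of the ratio and the part of D3T cannot be told apart on these arrays. With that ratio as a covariate the log2 difference of Apex1 was -2.94 ± 0.45 (SE), that of Polb U38801_at -0.57 ± 0.51 and that of Polb rc_AA957640_s_at -0.25 ± 0.51. No marker was listed at 0, though 1 of 2 Cd5 probe sets, 1 of 3 of Cps1, 1 of 3 of Ptprc and 2 of 3 of the smooth muscle actin gene Acta2 were under the low-signal limit on all 8 arrays. The part of cell type markers in the Apex1 difference was not tested.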

How the data were processed

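The 8 arrays came as 1 table of linear signal intensities deposited by the authors, made with MAS5 per the submitters' processing notes. The sources used here do not give the scaling target, detection calls or filters. The 2% trimmed means of the deposited intensities ran from 500.8 to 501, and precision was limited by the number of arrays. Groups and replicate numbers came from the sample titles.

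Arrays were scaled to a 2% trimmed mean of 500, floored at the 20th percentile and put on the log2 scale. After 59 control probe sets were left out, the brightest 60%, blind to group, were tested with limma 3.58.1 in R 4.3.3 (intensity trend, Benjamini-Hochberg). SEs of members come from the same fit without that filter, and each fold is a ratio of the groups' geometric means after flooring. A listed gene was represented by its brightest tested probe set. Gene names came from the platform annotation, which gives 1 symbol for 7006 probe sets, several for 308 and none for 1426, and RefSeq (GRCr8) holds the identifiers of 6985 of the 7006.

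Named were every member, per list up to 3 passing genes with the largest difference or else the brightest, and the 5 probe sets most like Apex1 by each measure. The members and lists were chosen with earlier results of these data known. The fit was tested on simulated data. Alternatives changed the scaling, floor, filter, variance model, array weights, block, RNA quality covariate and probe set rule, or left out 1 array.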

Additional observations from a re-analysis of the deposited data

Results flagged for a closer look

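A lone array far from the other 3 of its group was found in 6 of 102 groups of 4, and chance alone gives about 1 in 20. The groups were those of 51 probe sets, namely the members, the 31 listed genes tested and the genes most like Apex1. Among the members, Mpg read 222.4 in D3T replicate 3, while the other D3T arrays read 23.5 to 38.3. Among the listed genes, Ung read 64.5 in D3T replicate 1 (the others 287.3 to 316.8), Ercc1 read 929.3 in vehicle replicate 2 (the others 662.8 to 676.7) and Gadd45a read 467.9 in D3T replicate 4 (the others 340.7 to 362.4). Of the genes most like Apex1, Cand1 read 65.3 in D3T replicate 2 (the others 83.0 to 86.5) and Atxn3 read 102.9 in vehicle replicate 3 (the others 37.2 to 47.5).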

How the results depend on the processing

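The log2 difference of Apex1 was -2.13 with 16 added and no floor, -1.58 with the floor at the 40th percentile, and from -2.76 to -2.44 without 1 array. The 560 probe sets that passed became 309 with no filter, 333 with no intensity trend and 290 with the replicate number as a block. They became 824 with array weights, 588 with the brightest 30% and 35 with the actin ratio as a covariate. That ratio was lower on most D3T arrays, so its part cannot be told apart from that of D3T. Without 1 array the count ran from 240 to 695. The lowest was without vehicle replicate 3, and the counts without vehicle replicates 1 and 4 and D3T replicates 1 and 4 were 260, 301, 279 and 307. The single call among the other repair genes, Mdm2, became 0 with the brightest 30%, where it was not tested, and 0 with the replicate block and with the actin covariate. It was 0 to 1 without 1 array. In the labels, arrays of the same number are linked only by that number, and whether they share anything else is not known. Correlations of their deviations from group means ran from -0.20 to 0.063, with 1 of 4 vehicle arrays closest to its own number. With the number as a block Mdm2 had an adjusted p of 0.0767 with limma. With the actin covariate the log2 differences of Ogg1, Mpg and Mgmt X54862_i_at were 1.05 ± 0.66, 1.80 ± 1.01 and 0.79 ± 0.31 (SE). Directions turned for Ercc1 without vehicle replicate 2 (0.039) and without D3T replicate 3 (0.0054), within a range of -0.13 to 0.039 without 1 array. They turned for Txnrd1 with the actin covariate (-0.24) and without D3T replicate 4 (-0.054), within a range of -0.054 to 0.29 without 1 array. Cdkn1a turned with the actin covariate (0.87) and with the mean of its probe sets (0.055), and none of these passed. Of genes named after their values were seen, Nfkb1 passed with the brightest 30%, array weights and the mean of probe sets (adjusted p = 0.0346, 0.0379 and 0.0481 with limma), and Nme1 with no filter (0.0175). Apex1 has 1 probe set, so it could not be split by probe set. The causes of these changes were not tested, and without detection calls the 20th and 40th percentiles stand in for a background level.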
